A study of Mus musculus with 6 samples.

Results

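The 89 genes described here were the named nuclear genes whose RNA stood clearly higher in mouse oocytes matured in vivo (IVO) than in oocytes matured in vitro (IVM). A gene was taken when its lowest IVO library reached at least 5 FPKM (fragments per kilobase of transcript, scaled to the depth of the library) and was at least 1.5 times its highest IVM library. Mitochondrially encoded genes and rows without an Ensembl mouse identifier were left out. Of 53663 named nuclear genes, 7370 reached the level of 5 FPKM in every IVO library, and the 89 genes were 1.21% of these. The same rule turned around took 1380 of 8003 genes, or 17.2%, so the set was the small side of this comparison. The rule used the values of all 6 libraries. The values of the 89 genes are therefore given as a description, with no test.

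Each library was a pool of 20 metaphase II (MII) oocytes from 3 ICR mice aged 42–45 weeks, an age near the end of the reproductive lifespan of this outbred stock. All donors of both groups had received pregnant mare serum gonadotropin. In the 3 IVM pools, immature germinal vesicle oocytes were freed of cumulus cells and cultured for 12 h in M16 medium, whereas the donors of the 3 IVO pools also received human chorionic gonadotropin (hCG) and ovulated oocytes were taken from the oviduct 14 h later and stripped of cumulus cells with hyaluronidase. The groups therefore differed in hormone, in the cells around the oocyte and in the surroundings all at the same time, and these cannot be told apart. Nothing here shows whether mice were shared between pools, and the spread within a group is that between pools.

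A fully grown oocyte makes almost no new RNA. From the resumption of meiosis to the MII arrest it lives on stored messages, some of which are degraded while others gain a longer poly(A) tail and are translated. The longer tail is commonly set by a cytoplasmic polyadenylation element (CPE) near the end of the message, a U-rich stretch with the core UUUUAU or UUUUAAU that binds the protein CPEB. The libraries here were primed with oligo(dT), so the reads come from messages with a tail. A higher FPKM can mean more molecules or a longer tail, and these cannot be told apart in such libraries. As FPKM is scaled to depth, neither the total RNA of an oocyte nor the number of intact oocytes in a pool can be read from it.

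Among the most abundant members were oogenesins, oocyte-specific leucine-rich repeat proteins of the PRAME family. Oog1, Gm2042 and Pramel51 lie within 1 Mb of each other on chromosome 12 of GRCm39, at 87649458–87655620, 87920850–87927453 and 88142359–88148878. Their annotated transcripts are near copies, with 99.8% identity between Oog1 and Gm2042 and 99.2% between Gm2042 and Pramel51. Each holds the letters TTTTAT at the same place, 35 bases before the polyadenylation signal AATAAA. These stretches from the GRCm39 transcripts are shown because they are a feature that the rule did not use and that the copies share, with the CPE in capitals:
Oog1: aagcaccaTTTTATgagactggcccaat
Gm2042: aagcaccaTTTTATgagaatggcccaat
Pramel51: aagcaccaTTTTATgagactggcccaat
Oog3: taactttgTTTTATtttt
Oog3, on chromosome 4, carries the same 6 letters 10 bases from the end of its annotated transcript.

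The promoters of Oog1 and Gm2042 in the RefSeq tables of GRCm38.p6, each with 250 bases before and 50 bases after the annotated start, differed at 1 of 300 bases. They lie on the plus strand at chr12:87602415-87602714 and chr12:87954230-87954529, and the Oog3 promoter lies on the minus strand at chr4:144162602-144162901. Aligned without gaps, the Oog3 promoter differed from each of them at 223 of 300 bases. The first pair is printed as near copies and Oog3 for contrast, with the letters TATATAA, a form of the TATA box, in capitals:
Oog1 promoter: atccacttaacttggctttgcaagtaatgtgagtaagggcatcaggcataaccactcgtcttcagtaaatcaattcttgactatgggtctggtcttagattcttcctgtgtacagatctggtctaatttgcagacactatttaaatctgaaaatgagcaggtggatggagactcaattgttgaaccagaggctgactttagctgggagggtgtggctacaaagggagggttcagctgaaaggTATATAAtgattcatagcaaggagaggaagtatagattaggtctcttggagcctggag
Gm2042 promoter: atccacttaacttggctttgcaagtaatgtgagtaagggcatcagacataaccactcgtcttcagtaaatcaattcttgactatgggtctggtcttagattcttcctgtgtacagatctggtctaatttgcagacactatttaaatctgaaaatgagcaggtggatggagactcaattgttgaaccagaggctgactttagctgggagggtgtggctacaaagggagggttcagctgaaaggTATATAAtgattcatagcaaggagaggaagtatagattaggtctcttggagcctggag
Oog3 promoter: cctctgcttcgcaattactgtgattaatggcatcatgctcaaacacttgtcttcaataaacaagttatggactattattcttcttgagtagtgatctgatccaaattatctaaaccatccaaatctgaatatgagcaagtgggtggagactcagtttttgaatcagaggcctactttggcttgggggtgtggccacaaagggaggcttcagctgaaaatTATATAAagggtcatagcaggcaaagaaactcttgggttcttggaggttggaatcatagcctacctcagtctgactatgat
TATATAA was searched on both strands and stood in 1065 of 32851 promoters of this length, or 3.24%. Of the 89 genes, 65 had a promoter in the table, and the 3 oogenesins printed here were the ones with the motif. Counted by promoter, 3 of 80 or 3.75% of those of the members held it, close to the share of all promoters. A match is a stretch of letters and not a measured binding site.

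Oog3 was the most abundant of the 89 genes, at 4229, 3464 and 3749 FPKM in IVM and 6665, 6788 and 6932 FPKM in IVO. The ratio of the IVO mean to the IVM mean was 1.78, and the IVO libraries lay close together. It alone held 25.2–34.1% of the summed FPKM of all 89 genes. Oog1 was less even, with 579, 618 and 614 FPKM in IVM and 2492, 1874 and 1057 FPKM in IVO. Its ratio of means was 2.99, and IVO replicate 3 lay far below the other IVO pools but still above every IVM pool. Gm2042 stood at 452, 424 and 500.02 FPKM in IVM and 1203, 1123 and 884 FPKM in IVO, and Pramel51 at 379, 307 and 345 FPKM in IVM and 757, 808 and 676 FPKM in IVO, with ratios of 2.33 and 2.17. Reads from such copies can be divided between them by the counting step. A sum over the 3 chromosome 12 genes was made in depth-scaled fragments (FPKM multiplied by the transcript length less the fragment length, per 1000 bases). It was 2316, 2220 and 2405 in IVM and 7039, 6057 and 4199 in IVO. All 3 genes were chosen by the rule, so a higher sum in every IVO pool follows from it and nothing is read from this.

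Most of the rest of the family was not called in either direction. Of 52 genes named Oog or Pramel in the table, 21 had a mean of at least 1 FPKM and were tested with limma on log2(FPKM + 1). A DEG was a gene with a Benjamini-Hochberg adjusted p under 0.05 and |log2FC| of at least 1. By this rule 2 of the 21 were up-regulated in IVO, Oog1 and Pramel51, both chosen for this contrast, and 1, Pramel48, was down-regulated. Pramel48 lost its call under all 3 other scalings, and up-regulated genes numbered 3 with median-ratio scaling and the same sum and 5 with quantile normalization. Across all 18818 genes tested, 114 or 0.606% were up-regulated and 3366 or 17.9% were down-regulated. Up-regulated genes among all tested numbered 385 with median-ratio scaling, 397 with the same sum and 1096 with quantile normalization. Oog2 stood at 369, 358 and 425 FPKM in IVM and 375, 386 and 289 FPKM in IVO, and Oog4 at 511, 360.2 and 388 FPKM in IVM and 347, 309.6 and 198 FPKM in IVO, so the groups overlapped for Oog2. Pramel32 was higher in IVO with 0.65 ± 0.14 (log2FC ± SE, limma adjusted p = 0.0148), which missed the fold of a DEG, whereas Pramel29 was lower with -0.71 ± 0.17 (limma adjusted p = 0.0245), a difference that did not pass when the libraries were scaled to the same sum (limma adjusted p = 0.191).

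**Figure D1:**
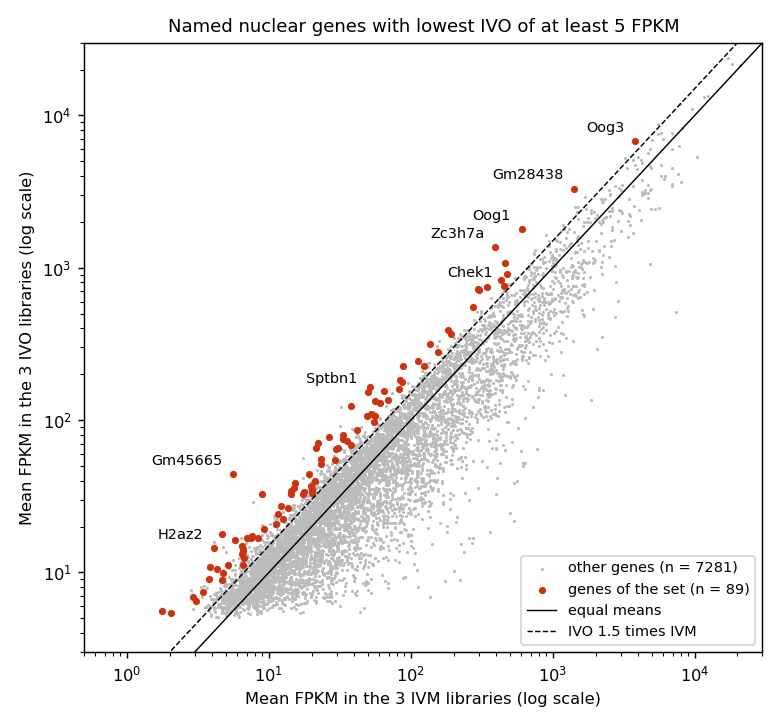
Mean FPKM of 7370 named nuclear genes in the 3 IVM libraries (x) and the 3 IVO libraries (y), both on log scales. The 89 genes of the set (red) lie above the dashed 1.5-fold line from a mean of 5.39 FPKM to 6795 FPKM in IVO, while most of the other genes lie near or below the line of equal means.

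The 89 genes spanned the range of expression. Their median mean level was 22.3 FPKM in IVM and 54.9 FPKM in IVO, against 37.7 and 31.7 FPKM over the 7370 genes. The ratio of means ran from 1.65 to 7.91 with a median of 2.18, where the median over the 7370 genes was 0.954. It was at least 2 in 64 genes and at least 3 in 11. Together the 89 genes held 0.549–0.638% of the summed FPKM of an IVM library and 1.39–1.71% of an IVO library. The pools of a group were close for these genes, with a median coefficient of variation of 14.5% in IVM and 10.3% in IVO (20.4% and 13.3% over the 7370 genes). The rule favours small spread, so nothing is read from this. IVO replicate 3 was the lowest of its group in 53 of the 89 genes, or 59.6%, compared with 39.5% of the 7370 genes.

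The set had no gap at its edge. Of the 7370 genes, 1282 had every IVO library at or above every IVM library, 335 kept a ratio of at least 5 to 4, 89 a fold of 1.5 and 8 a fold of 2. Just inside lay the pseudogene Gm12833 with a lowest IVO value 1.502 times its highest IVM value, the lysosomal protease gene Lgmn with 1.504 and the kinase anchor gene Akap10 with 1.509. Just outside lay Ap3s1, an adaptor subunit of endosomal traffic, with 1.498, the splicing regulator Tra2b with 1.495 and the kinetochore gene Dsn1 with 1.494. Below the level of 5 FPKM, 4933436I20Rik, Gm8935 and the cell death gene Bax were the nearest genes that met the fold, with a lowest IVO value of 4.81, 4.31 and 4.28 FPKM.

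**Figure D2:**
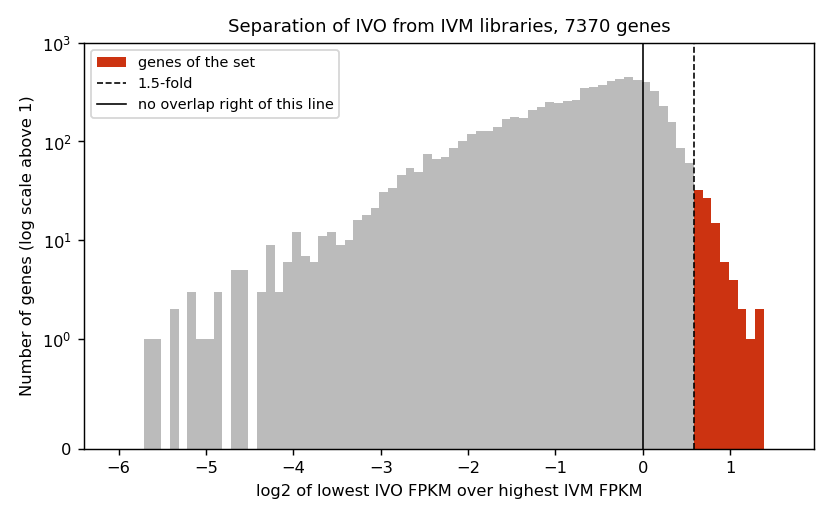
Number of genes (y, log scale above 1) by the log2 of the lowest IVO FPKM over the highest IVM FPKM (x) for 7370 genes. The 89 genes of the set (red) form the right tail beyond the dashed 1.5-fold line, the farthest being Sucla2 at 2.54-fold.

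The clearest separation was that of Sucla2, Sptbn1 and Tor1a, whose products have different roles. Sucla2, the ADP-forming subunit of succinyl-CoA synthetase in the citric acid cycle, had 23.0, 19.3 and 22.4 FPKM in IVM and 72.2, 65.5 and 58.5 FPKM in IVO. Its lowest IVO pool was 2.54 times its highest IVM pool. Sptbn1, the beta-II spectrin that braces the membrane from within, had 49.1, 43.8 and 58.0 FPKM in IVM and 158, 162 and 142 FPKM in IVO, and its lowest IVO pool was 2.45 times its highest IVM pool. Tor1a, the torsin ATPase of the endoplasmic reticulum and nuclear envelope, had 43.8, 46.3 and 63.6 FPKM in IVM and 163, 182 and 153 FPKM in IVO and a separation of 2.40. No pool of these 3 genes came near the other group.

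The set held 5 mitochondrial proteins encoded in the nucleus, and most of them serve energy supply. Slc25a3, the phosphate carrier that feeds ATP synthase, had 34.1, 17.4 and 27.4 FPKM in IVM and 71.3, 88.1 and 73.0 FPKM in IVO, a ratio of means of 2.94. Cox5a, a subunit of cytochrome c oxidase, was the most abundant of the group at 186, 195 and 197 FPKM in IVM and 372, 409.8 and 316 FPKM in IVO. Mtpap, the mitochondrial poly(A) polymerase, went from an even 53.7, 52.0 and 52.5 FPKM in IVM to 116, 123 and 90.4 FPKM in IVO. Tcaim, a mitochondrial regulator named for T cell activation, had 12.1, 12.8 and 17.9 FPKM in IVM and 35.1, 33.2 and 30.4 FPKM in IVO. The groups were fully apart in all of them, with ratios of means of 1.90–3.03. These genes were picked for being higher and do not stand for energy genes at large. The pathway label oxidative phosphorylation was carried by 2 members, or 5.26% of the labelled members, against 2.98% of the labelled genes at this level. The paper reported many genes of this pathway as down-regulated in IVO.

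Genes of DNA replication and repair formed a group of 5. An MII oocyte does not replicate its DNA, but it stores the machinery that the zygote will use. Chek1, the kinase of the replication checkpoint, stood at 469, 470.3 and 419 FPKM in IVM and 754, 788 and 742 FPKM in IVO, the highest level of the group. Helq, a helicase of DNA crosslink repair, had 61.9, 68.8 and 63.9 FPKM in IVM and 162, 156 and 149 FPKM in IVO, with a ratio of 2.40 and little spread in either group. Cdc45, a part of the active replicative helicase, had 13.8, 14.1 and 17.1 FPKM in IVM and 37.2, 36.1 and 34.9 FPKM in IVO, and Orc4, a subunit of the origin recognition complex, 163, 156 and 151 FPKM in IVM and 261, 302 and 275 FPKM in IVO. Rpa1, the large subunit of the single-strand binding protein, was more variable in IVM, at 30.2, 16.7 and 23.6 FPKM in IVM and 49.9, 54.7 and 50.4 FPKM in IVO.

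In a list of 21 origin genes, all tested, 1 was up-regulated in IVO (Cdc45, a member by the rule) and 0 were down-regulated. At an unadjusted p under 0.05 limma called 6 higher, among them the members Cdc45 and Orc4, and 1 lower. Over all 18818 tested genes, 1047 were higher and 5903 lower at this p. With the libraries scaled to the same sum 3 of the 21 were up-regulated, and with quantile normalization 7. Among all tested genes 397 and 1096 were up-regulated under these scalings. Orc5 had 297, 188 and 256 FPKM in IVM and 415, 429 and 319.8 FPKM in IVO, with a log2FC of 0.66 ± 0.22 (limma adjusted p = 0.0723). Gins4, a subunit of the GINS complex of the replicative helicase, had 108, 75.5 and 108 FPKM in IVM and 146, 154 and 146 FPKM in IVO (limma adjusted p = 0.0578). In Orc5 and Gins4, as in the helicase subunit gene Mcm2 and in Gins1, every IVO pool lay above every IVM pool, but by less than the fold of the rule. Of the 7370 genes, 1282 had every IVO library at or above every IVM library. Orc6, the most abundant gene of the list, had 1221, 1449 and 928 FPKM in IVM and 1302, 1295 and 1606 FPKM in IVO and the groups overlapped. Geminin (Gmnn), which blocks licensing, also overlapped at 492–866 FPKM in IVM and 773–945 FPKM in IVO.

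RNA processing and nuclear transport had 8 genes. Zc3h7a, a zinc finger protein that binds RNA, was the most abundant of them, at 738, 245 and 194 FPKM in IVM and 1481, 1341 and 1275 FPKM in IVO. IVM replicate 1 lay far above the other IVM pools, and without it the ratio of means went from 3.48 to 6.22. Srsf3, an SR protein that takes part in exon selection, had 50.4, 59.8 and 56.9 FPKM in IVM and 108, 109.6 and 102 FPKM in IVO. Srsf5, another SR protein, had 27.6, 32.9 and 31.9 FPKM in IVM and 65.2, 73.4 and 58.7 FPKM in IVO. Clk4, a kinase that phosphorylates SR proteins, was low throughout at 2.62, 3.60 and 2.47 FPKM in IVM and 7.43, 6.78 and 6.62 FPKM in IVO. In the list of 18 tested SR proteins and their kinases, 2 were up-regulated, Srsf5 and Clk4, and 0 were down-regulated. At an unadjusted p under 0.05, 5 were higher and 0 lower, against 1047 and 5903 of all 18818 tested genes. The 5 include Srsf3, Srsf5 and Clk4, which were chosen by the rule. Scaled to the same sum 5 of the 18 were up-regulated, and with the length trend removed 0. Among all 18818 tested genes 397 and 169 were up-regulated in these settings. Srsf3 missed the fold of a DEG. Outside the set, 2 genes of the list were also higher with an adjusted p under 0.05 but below that fold, Clk1 with 0.69 ± 0.18 (limma adjusted p = 0.0303) and Tra2b with 0.74 ± 0.17 (limma adjusted p = 0.0226). The abundant kinase Srpk1 overlapped between the groups, at 431, 558 and 684 FPKM in IVM and 630.0, 639 and 549 FPKM in IVO.

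The remaining genes of this group carry molecules through the nuclear pore or build RNA-protein particles. Nutf2, which returns the GTPase Ran to the nucleus, had 59.1, 46.7 and 41.2 FPKM in IVM and 105, 117 and 98.0 FPKM in IVO. Nxt2, a cofactor of messenger RNA export, had 21.1, 18.4 and 12.4 FPKM in IVM and 33.4, 31.9 and 32.7 FPKM in IVO, close to the threshold of the rule. Clns1a, a chaperone of spliceosomal particle assembly, and Pop7, a subunit of RNase P and RNase MRP, had ratios of means of 2.40 and 1.75.

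Transcription and chromatin genes numbered 7. Taf13, a subunit of the general factor TFIID, was nearly identical in the IVO pools at 556, 556 and 557 FPKM, against 241, 329.7 and 247 FPKM in IVM. Its fellow TFIID genes went different ways. Tbp, the TATA-binding protein, was higher with 0.75 ± 0.17 (limma adjusted p = 0.019), below the fold of a DEG. Taf15 was down-regulated, with 113, 125 and 80.1 FPKM in IVM and 24.9, 24.0 and 30.2 FPKM in IVO (log2FC -1.95 ± 0.23, limma adjusted p = 0.00221). Of 19 tested TFIID genes, 1 was up-regulated, Taf13, and 1 down-regulated, Taf15, against 0.606% and 17.9% of all tested genes. Under the other scalings Tbp also passed as a DEG, with log2FC of at least 1.07, and 2 or 3 genes of the list were up-regulated, but 0 with the length trend removed. Among all tested genes, 385–1096 were up-regulated under these scalings and 169 with that trend removed.

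H2az2, which encodes a form of the histone variant H2A.Z, had 1.64, 3.65 and 7.10 FPKM in IVM and 12.7, 17.5 and 13.1 FPKM in IVO. The IVM pools differed from each other more than 4 times at this low level. Mga, a large repressor of the MAX network, had 35.3, 26.4 and 25.6 FPKM in IVM and 53.5, 55.6 and 55.7 FPKM in IVO. Pknox2, a TALE homeodomain factor, had 11.1, 12.9 and 18.8 FPKM in IVM and 38.0, 31.0 and 33.7 FPKM in IVO, and Tspyl1, a relative of nucleosome assembly proteins, had a ratio of means of 2.04.

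Translation and folding genes included Btf3, the beta subunit of the nascent polypeptide-associated complex, at 236, 383 and 266 FPKM in IVM and 792, 745 and 627 FPKM in IVO. Eif2s1, the alpha subunit of eIF2 through which stress kinases hold back translation, had 12.3, 17.1 and 16.2 FPKM in IVM and 40.1, 45.2 and 31.1 FPKM in IVO. Dnajb4, an Hsp40 co-chaperone, had 394, 468 and 423 FPKM in IVM and 807, 879 and 803 FPKM in IVO. Partners of these proteins differed in direction. Naca, the alpha subunit of the same nascent chain complex, had 116, 137 and 124 FPKM in IVM and 144, 102 and 72.7 FPKM in IVO, and Eif2s2, the beta subunit of eIF2, 391, 516 and 432 FPKM in IVM and 421, 405 and 410.1 FPKM in IVO, with the groups overlapping in both. The exchange factor genes Eif2b3 and Eif2b4 were down-regulated in IVO, with log2FC of -1.62 ± 0.23 and -2.15 ± 0.48 (limma adjusted p = 0.00421 and 0.0192). Eif2b1, of the same exchange factor, was slightly higher in every IVO pool at 718, 677 and 609.7 FPKM in IVM and 759, 759 and 781 FPKM in IVO, which did not pass the test (limma adjusted p = 0.342). Of 14 tested genes of this list, 2 were up-regulated, Eif2s1 and Btf3, and 2 were down-regulated, against 0.606% and 17.9% of all tested genes.

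The ubiquitin system had 5 members. Usp14, a deubiquitinase that rides on the proteasome, had 95.6, 83.6 and 81.5 FPKM in IVM and 172, 196 and 169 FPKM in IVO. Rnf111, the ubiquitin ligase Arkadia of TGF-beta signalling, was steady within each group at 55.0, 57.2 and 69.0 FPKM in IVM and 129.8, 129 and 131 FPKM in IVO. Usp33 had 19.9, 18.6 and 21.0 FPKM in IVM and 38.2, 34.5 and 37.7 FPKM in IVO, Commd3, a subunit of an endosomal sorting complex tied to ubiquitin ligases, had a ratio of means of 1.97, and the ligase Herc4 one of 1.70. Of 40 tested Usp genes 1 was up-regulated, Usp14, and 3 were down-regulated, Usp40, Usp50 and Usp4, against 0.606% and 17.9% of all tested genes. At an unadjusted p under 0.05, 5 were higher, among them the members Usp14 and Usp33, and 5 lower. Over all 18818 tested genes, 1047 were higher and 5903 lower at this p. Scaled to the same sum, 4 were up-regulated and 2 down-regulated, against 397 and 2131 of all tested genes.

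**Figure D3:**
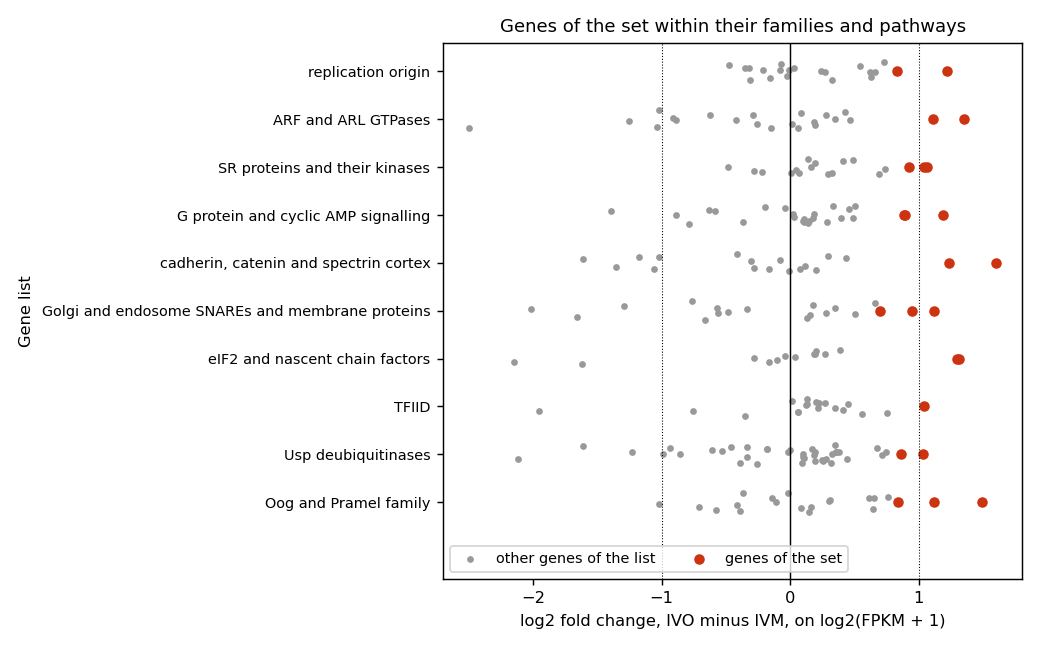
Log2 fold change (x, IVO minus IVM on log2(FPKM + 1)) of every tested gene in 10 lists of families and pathways (y). The genes of the set (red) were chosen for high values and sit at 0.70 to 1.60, while the other genes of each list (grey) lie on both sides of 0, down to -2.50 for Arl2. Dotted lines mark a log2 fold change of 1 in either direction.

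Genes of the cortex, of adhesion and of G protein signalling numbered 8. The cortex is the actin and spectrin layer under the oocyte membrane, and cyclic AMP is the signal that holds the oocyte in meiotic arrest. Ctnnb1 (beta-catenin), which links cadherins to actin and carries Wnt signals, had 103, 125 and 184 FPKM in IVM and 332, 315 and 301 FPKM in IVO. Gnai1, an inhibitory G protein subunit, had 18.8, 14.2 and 24.3 FPKM in IVM and 44.9, 44.5 and 42.4 FPKM in IVO. Rapgef4 (Epac2), an exchange factor switched on by cyclic AMP, had 17.9, 24.2 and 21.5 FPKM in IVM and 36.8, 45.4 and 37.4 FPKM in IVO, and Akap10, an anchor of protein kinase A, 17.1, 15.1 and 21.0 FPKM in IVM and 31.7, 36.3 and 32.6 FPKM in IVO. The pools of these genes did not overlap, with ratios of means between 1.88 and 2.30.

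Related genes were not called or were called lower. By the same thresholds 0.606% of all 18818 tested genes were up-regulated and 17.9% down-regulated. Under the 3 other scalings these were 385–1096 and 1579–2131 genes. Gnai3, the more abundant relative of Gnai1, had 70.2, 64.9 and 77.9 FPKM in IVM and 101, 92.3 and 100.4 FPKM in IVO, with a log2FC of 0.46 ± 0.17 (limma adjusted p = 0.0887). Gnaq was down-regulated in IVO, with 469, 553 and 397 FPKM in IVM and 275, 97.7 and 209 FPKM in IVO (limma adjusted p = 0.0351). Of 26 tested G protein and cyclic AMP genes 1 was up-regulated, Gnai1, and 1 down-regulated, Gnaq. Under each of the 3 other scalings 3 were up-regulated and 0 down-regulated, as the adjusted p of Gnaq rose to 0.0748–0.109. In the list of 18 tested cadherin, catenin and spectrin genes, the 2 up-regulated genes were the members Ctnnb1 and Sptbn1, and the 4 down-regulated genes were Ank2, Ctnna2, Epb41l1 and Cdh3. These 4 lost their calls under all 3 other scalings. Sptan1, the alpha spectrin that pairs with Sptbn1, varied widely at 153, 101 and 50.8 FPKM in IVM and 125, 1.36 and 94.4 FPKM in IVO.

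The group also held Garre1 and Vav2. Garre1, an effector of Rac GTPases, had a ratio of means of 1.95. Vav2, an exchange factor of small GTPases, had 6.13, 7.31 and 3.77 FPKM in IVM and 23.7, 13.6 and 11.6 FPKM in IVO, with IVO replicate 1 well above the other IVO pools.

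Membrane traffic and organelle genes numbered 11 by this assignment of functions, of which 3 still met the rule with the length trend removed. Tm9sf2, a protein of Golgi and endosome membranes, was the most abundant at 495, 522 and 401 FPKM in IVM and 987, 833 and 906 FPKM in IVO. Tvp23b, a Golgi membrane protein, had 88.7, 79.1 and 83.2 FPKM in IVM and 174, 195 and 179 FPKM in IVO. Vps35, the core of the retromer that retrieves cargo from endosomes, had 32.2, 35.2 and 39.8 FPKM in IVM and 78.7, 78.1 and 63.5 FPKM in IVO. Arl8b, the GTPase that moves lysosomes along microtubules, had 32.4, 25.3 and 30.8 FPKM in IVM and 71.5, 65.3 and 57.3 FPKM in IVO. Bbs4, a subunit of the BBSome of ciliary traffic, had 142, 89.4 and 137 FPKM in IVM and 223, 233 and 219 FPKM in IVO. Dctn6, a dynactin subunit, Dennd4a, a Rab exchange factor, and Emc2, a subunit of the endoplasmic reticulum membrane complex, were lower, with ratios of means of 2.28, 2.16 and 1.76. Over the 11 genes the ratio of means ran from 1.65 to 3.24. Stx7, a late endosome SNARE, had the smallest ratio, with 20.6, 19.0 and 20.6 FPKM in IVM and 33.0, 31.8 and 34.5 FPKM in IVO.

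SNAREs and small GTPases outside the set included down-regulated genes. Of all 18818 tested genes, 17.9% were down-regulated and 0.606% up-regulated. Under the 3 other scalings, 1579–2131 of all tested genes were down-regulated and 385–1096 up-regulated. Stx8, which pairs with Stx7 in late endosome fusion, was down-regulated in IVO at 411, 381 and 264 FPKM in IVM and 70.0, 76.3 and 114 FPKM in IVO (log2FC -2.02 ± 0.26, limma adjusted p = 0.00319). Stx2 and Stx5a were also down-regulated, which made 3 down-regulated against 1 up-regulated gene, Tvp23b, among 19 tested Golgi and endosome genes. This balance depended on the scaling, with 3 up-regulated and 3 down-regulated under median-ratio scaling and the same sum, and 5 and 2 with quantile normalization. In the 22 tested ARF and ARL genes the members Arl8b and Arfip1 were up-regulated, Arfip1 with a near copy that turns the direction of their sum, and Arl2, Arf3 and Arfgap3 were down-regulated, of which 1 (Arl2) kept its call under all 3 other scalings. Arl2, a regulator of tubulin folding, had 44.7, 28.5 and 36.7 FPKM in IVM and 4.73, 7.02 and 5.16 FPKM in IVO (limma adjusted p = 0.0015).

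Genes of metals, lipids and the lysosome were 6. Fth1, the heavy chain of the iron store ferritin, had 51.2, 26.7 and 35.3 FPKM in IVM and 195, 82.8 and 92.9 FPKM in IVO, and IVO replicate 1 was more than 2 times the other IVO pools. Lypla1, a thioesterase that removes palmitate from proteins, had 21.3, 18.3 and 27.3 FPKM in IVM and 81.0, 76.2 and 54.3 FPKM in IVO and a ratio of 3.16. Slc31a1, the copper importer, had 4.35, 4.67 and 5.15 FPKM in IVM and 10.7, 10.7 and 8.27 FPKM in IVO. Hsd17b12, an enzyme of long-chain fatty acid elongation, had 37.5, 34.5 and 42.0 FPKM in IVM and 65.5, 67.9 and 73.5 FPKM in IVO. Lgmn (legumain) and Slc49a4, both lysosomal, had ratios of 1.89 and 2.28.

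A further 10 protein-coding genes had no common role. Mzt1, which helps recruit the gamma-tubulin ring complex that nucleates spindle microtubules, had 59.9, 58.7 and 49.6 FPKM in IVM and 131, 111 and 160.0 FPKM in IVO. Bik, a BH3-only gene of the cell death machinery, had 12.2, 9.63 and 12.9 FPKM in IVM and 24.1, 28.2 and 20.3 FPKM in IVO. Mug2, a murinoglobulin protease inhibitor, had 26.2, 36.3 and 37.6 FPKM in IVM and 109.7, 64.8 and 65.2 FPKM in IVO. Xlr4a, an X-linked lymphocyte-regulated gene, had 22.5, 25.4 and 22.5 FPKM in IVM and 65.6, 60.6 and 40.7 FPKM in IVO. The others, Mtcp1, Lrrc40, Sh3bgrl, Klra17, Cyp2b13 and Pate13, had ratios of means of 1.78–3.19, and Klra17, Cyp2b13 and Pate13 did not exceed 12.3 FPKM in any library.

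**Figure D4:**
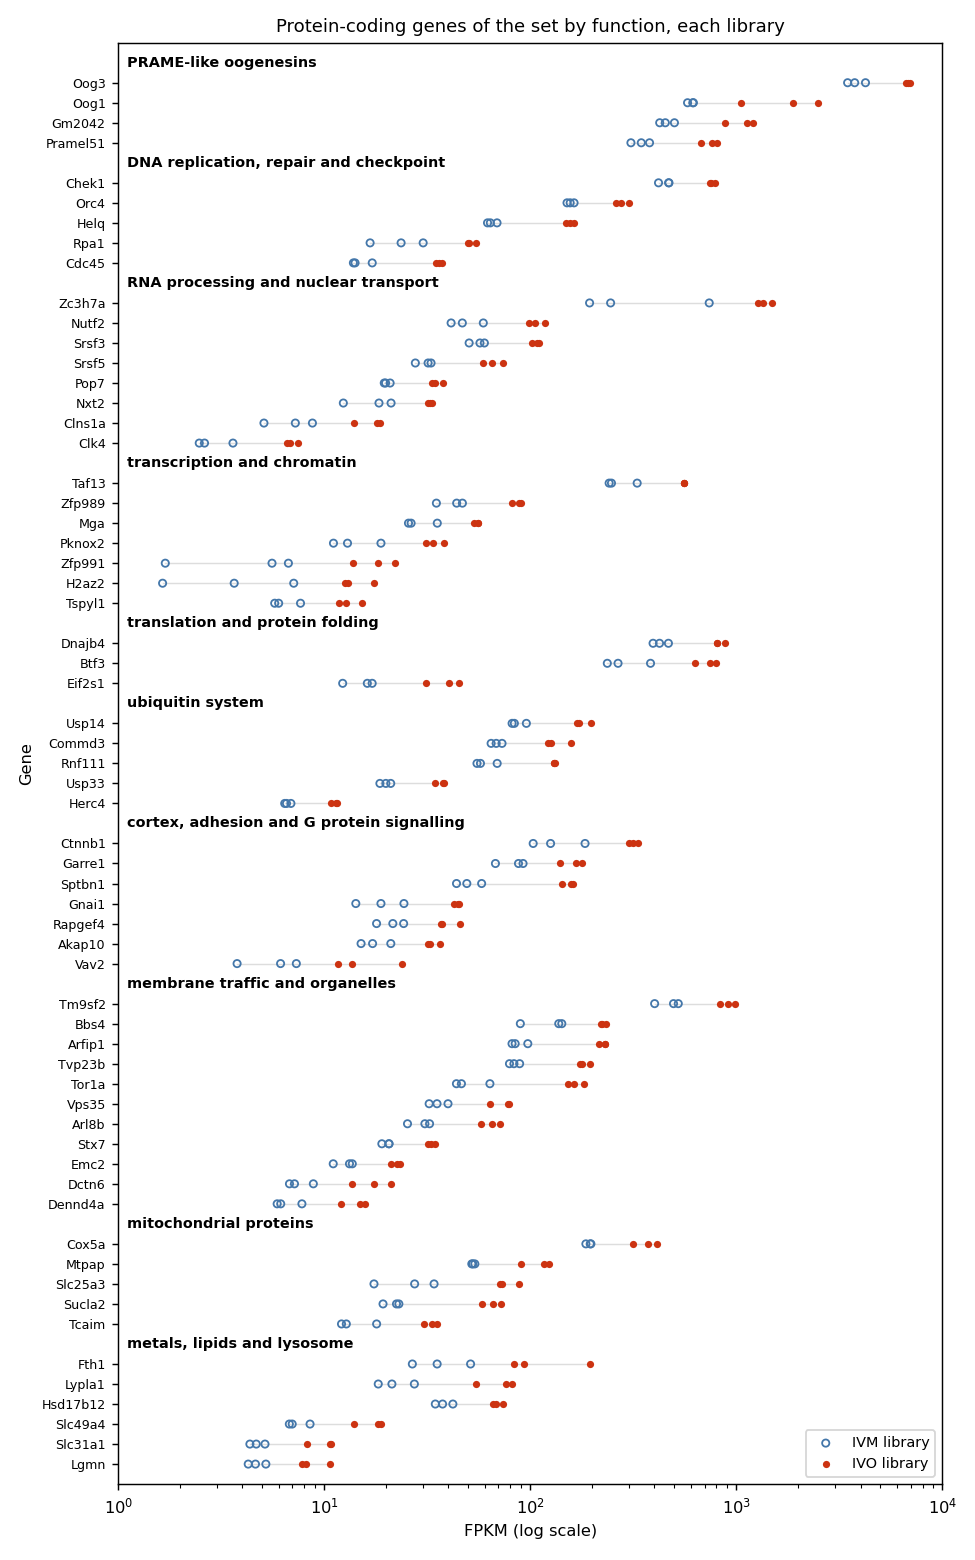
FPKM (x, log scale) of 61 protein-coding genes of the set (y) in the 3 IVM libraries (open blue) and the 3 IVO libraries (red), grouped by function. By the rule no red point lies at or left of a blue point of its row, and wide spreads within a group are seen for Zc3h7a and H2az2 in IVM and for Oog1 in IVO.

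Of the members 17 were not protein-coding, 10 long non-coding RNAs and 7 pseudogenes. The long non-coding RNA Gm839 had 328, 243 and 338 FPKM in IVM and 792, 785 and 566 FPKM in IVO, and Arhgap20os 178, 172 and 199 FPKM in IVM and 434, 404 and 335 FPKM in IVO. Arhgap20, on the opposite strand of Arhgap20os, was far lower at 8.27–14.2 FPKM in IVM and 9.64–10.9 FPKM in IVO, and the groups overlapped. The pseudogene Gm28168 had 129, 102 and 103 FPKM in IVM and 246, 252 and 232 FPKM in IVO. The highest ratio of means in the set, 7.91, belonged to Gm45665, whose values were 5.99, 7.17 and 3.73 FPKM in IVM and 13.9, 82.3 and 37.4 FPKM in IVO. It rested largely on IVO replicate 2, without which the ratio was 4.55, and with the length trend removed it was 23.7. Its transcript has 168 bases and that of Gm6897 138, shorter than the inferred fragments, so their FPKM are poorly defined. Another 10 of the 17, among them EU599041, Gm34586 and Gm12144, stayed at or below 33.6 FPKM in every library, with ratios of means of 1.84–2.64.

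Gm28438 is a nuclear copy of a mitochondrial gene. Its transcript of 345 bases lies on chromosome 1 at 24651856–24652200 and is 99.7% identical to mt-Nd3, which encodes a subunit of respiratory complex I. Gm28438 had 1223, 1631 and 1389.5 FPKM in IVM and 3278, 4151 and 2504 FPKM in IVO, and mt-Nd3 had 779, 1734 and 1188 FPKM in IVM and 1769.8, 1929 and 1227 FPKM in IVO, with the groups of mt-Nd3 overlapping. The Gm28438 transcript is little longer than the inferred fragments, so its FPKM depends strongly on their length, which differed between the groups. In inferred fragments, not scaled to depth, it had 2727, 4417 and 3722 in IVM and 5075, 6800 and 4326 in IVO. On that scale IVO replicate 3 (depth 18 M) did not exceed IVM replicate 2 (depth 19.2 M). No sum with mt-Nd3 was made, and how reads were divided between the copies was not tested.

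Near copies bear on 12 of the 89 genes, those whose annotated transcript matched another gene's transcript with at least 95% identity over at least 50% of its length. Sums with a copy were made for Arfip1, Zfp991, Zfp989, Xlr4a and the chromosome 12 oogenesins, and for Arfip1 and Zfp991 the sum ran against the member. Arfip1, an effector of ARF GTPases, had 81.4, 84.3 and 97.1 FPKM in IVM and 216, 229.5 and 229 FPKM in IVO, but Gm37240, which is identical to 72.6% of its transcript and overlaps it on the same strand, had 672, 544 and 602 FPKM in IVM and 396, 416 and 445 FPKM in IVO. In depth-scaled fragments, Arfip1 and Gm37240 together came to 1908, 1571 and 1740 in IVM and 1286, 1355 and 1436 in IVO, lower in every IVO pool. The zinc finger gene Zfp991 had 6.69, 5.57 and 1.69 FPKM in IVM and 18.2, 22.1 and 13.7 FPKM in IVO, whereas with its near copy Zfp992 the sum was 214, 276 and 213 depth-scaled fragments in IVM and 209.8, 144 and 162 in IVO. For Zfp989 with Zfp987 and for Xlr4a with Xlr4c the sum stayed above in every IVO pool, with ratios of means of 2.02 and 1.84. But Zfp989 matched 5 other genes at this identity and length and Xlr4a 6, so these sums cover only part of their copies. Oog1 and Gm2042 each matched 4 other genes and Pramel51 3, and not all of these were in the oogenesin sum. Read sharing with the copies left out was not tested. Gm6897 lies wholly within a stretch identical to Gab3, which had 587, 530.5 and 485 FPKM in IVM and 408, 331 and 481 FPKM in IVO, with a lower mean in IVO. No sum was made for this pair, as Gm6897 is shorter than the fragments. Without the genes that have such a copy, 64 protein-coding members were left.

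Exons of 52 members overlap exons of another annotated gene, 48 with a gene on the opposite strand and 11 with one on the same strand. The Nextera libraries do not mark strand, so reads in such stretches cannot be assigned to a strand. Ctnnb1 overlaps Ulk4, which had 37.2, 75.3 and 46.3 FPKM in IVM and 16.9, 31.7 and 10.4 FPKM in IVO. Usp14 overlaps Thoc1, which was more abundant than Usp14 at 636, 1013 and 902 FPKM in IVM and 464, 357 and 503 FPKM in IVO. In both pairs the partner was lower in every IVO pool, the opposite of the member. Other partners stood on the side of the member. Bora, which overlaps Mzt1, had 16.5, 17.4 and 18.3 FPKM in IVM and 30.1, 26.2 and 27.2 FPKM in IVO, and Gm6377, which overlaps Sh3bgrl on the same strand, 7.24, 6.19 and 5.05 FPKM in IVM and 11.4, 10.5 and 10.2 FPKM in IVO. Vps35 overlaps Orc6, which was far more abundant than Vps35 and whose groups overlapped. Among 30 pairs whose partner had a mean of at least 1 FPKM in a group, the partner was above in every IVO pool in 4, below in every IVO pool in 10 and overlapping in 16. How many reads were shared was not tested.

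The members lay on 20 chromosomes. Chromosome 9 held 11 of them, or 12.4%, against 5.94% of the 7370 genes, chromosome 12 held 6 (6.74% against 4.13%) and chromosome X 5 (5.62% against 3.47%). Besides the oogenesins, neighbours within 1 Mb included Chek1 and Pknox2 on chromosome 9, Dnajb4 and Usp33 on chromosome 3, and Zfp989 and Zfp991 on chromosome 4, and 10 pairs in all were this close. The median transcript length in the table was 2240 bases against 2511, and the median GC content of the annotated transcript 44.2% against 47.6%. By type, 80.9% were protein-coding against 85.4%.

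CPE letters (TTTTAT or TTTTAAT) stood in the last 300 bases of the transcript in 31 of 72 protein-coding members, or 43.1%, against 37.8% of the protein-coding genes at this level. In the last 100 bases the shares were 22.2% and 20.8%. Stretches are shown as examples from 4 members described above, Nxt2, Cox5a, Stx7 and Cdc45, with the CPE in capitals:
Nxt2: gttcatatTTTTATaacttaagaaataa
Cox5a: tggaaatgTTTTATttgaacaaattttc
Stx7: aaactgacTTTTATtgacaatatttaaa
Cdc45: gtttgatgTTTTATcccctc
The share of members with these letters was thus close to that of the background. Of the pathway labels in the table, which 38 of the 89 genes carried, the most frequent was Herpes simplex virus 1 infection, given to 8 members (21.1% of the labelled members against 7.13% of the labelled genes at this level). Alzheimer disease, RNA transport, Rap1 signaling and leukocyte transendothelial migration were each given to 4 members (10.5%, against 5.83%, 3.94%, 2.81% and 1.51%), and every other label to 3 or fewer.

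No gene of the cell type marker lists was a member. Of 21 cumulus and granulosa markers 17 were below 1 FPKM in every library, and 3 were tested with 0 DEGs by limma and 0 at an unadjusted p under 0.05. The summed level of the list was 31.3–62.1 FPKM in IVM and 35.6–58.3 FPKM in IVO, most of it from Cyp19a1, Amhr2 and Fshr. The hCG-induced cumulus genes Has2, Ptgs2, Tnfaip6 and Ptx3 were under 1 FPKM throughout. At these traces every IVO pool was above every IVM pool for Has2 (0.04–0.14 FPKM in IVM and 0.17–0.37 FPKM in IVO), Tnfaip6 (0.00–0.14 and 0.34–0.49 FPKM) and Ptx3 (0.00–0.03 and 0.07–0.17 FPKM), as for Fst (0.10–0.12 and 0.36–1.73 FPKM), while Ptgs2 overlapped. Leukocyte markers summed to 1.88–8.52 FPKM in IVM and 4.20–28.6 FPKM in IVO, with the highest value in IVO replicate 3, red blood cell markers to 0–0.98 and 0–5.82 FPKM, oviduct markers to 2.76–3.39 and 3.26–5.98 FPKM, and theca and stroma markers to 2.22–2.48 and 1.35–1.61 FPKM. All 15 oocyte markers were tested, of which 0 were up-regulated and 6 down-regulated in IVO by limma. At an unadjusted p under 0.05, 0 were higher and 8 lower, against 1047 and 5903 of all 18818 tested genes. Zp3, a zona pellucida protein, stood at 892, 326 and 588 FPKM in IVM and 58.5, 64.4 and 65.1 FPKM in IVO, and Gdf9, an oocyte growth factor, at 1794, 1028 and 1321 FPKM in IVM and 964, 1089 and 1023 FPKM in IVO. The part of these other cells in the values of the 89 genes was not tested.

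The limma fit called 56 of the 89 genes up-regulated, where 0.606% of all tested genes were called. The rule used the same contrast, and nothing is read from this count. At an unadjusted p under 0.05 limma found 1047 genes higher and 5903 lower in IVO. The depth inferred from the steps of low FPKM values was 16.4–19.2 M fragments in IVM and 18 M in each IVO library, and 3 fragments on a transcript of 1000 bases corresponded to 0.196–0.231 FPKM. This covers counting error only. Of the members with at least 300 bases, 11 had fewer than 100 inferred fragments in at least 1 library.

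**Figure D5:**
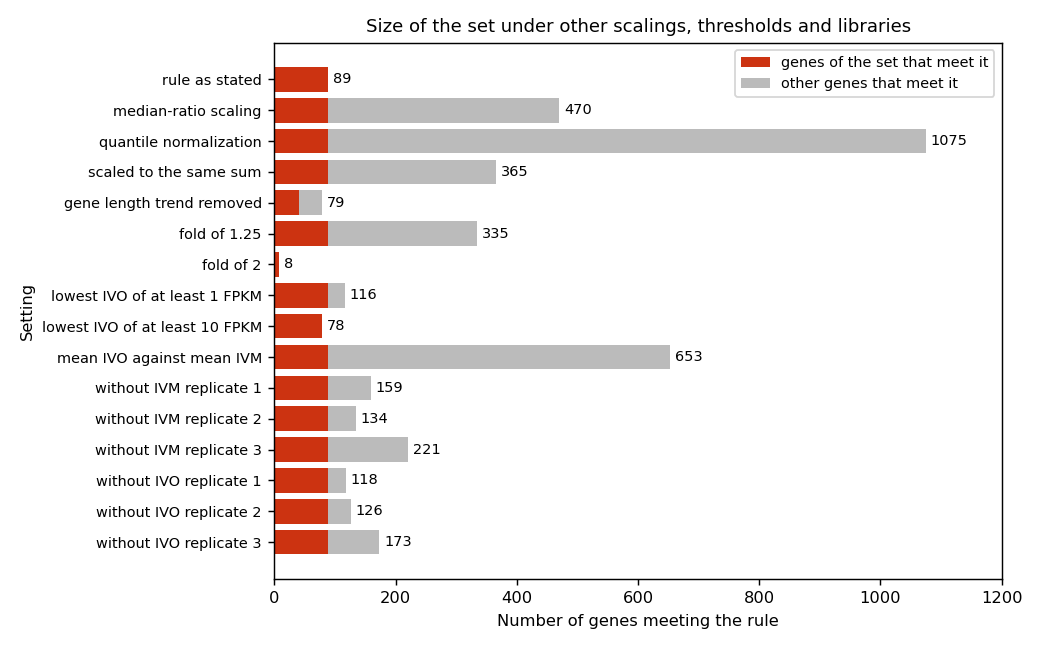
Number of genes meeting the rule (x) under each setting (y), split into genes of the set (red) and other genes (grey). The 89 genes met the rule under all 3 changes of library scaling, where 276 to 986 other genes joined them. These scalings raised IVO against IVM, so the 89 could hardly drop out. With the length trend removed 41 of the 89 met the rule, and 8 at a fold of 2.

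How many genes stood higher in IVO depended on the scaling of the libraries. The summed FPKM was 1826738–2111776 in IVM and 1560813–1643682 in IVO. As deposited, the median log2FC of all tested genes was -0.30, and the 89 genes were high against that shift. With libraries scaled to the same sum the median was -0.03, and 365 genes met the rule. This scaling raised every IVO library against every IVM library, so the 89 had to be among them. The inferred fragments also differed in length, at 205–210 bases in IVM and 250–260 bases in IVO. The median log2FC ran from -0.99 in tested genes under 500 bases to -0.12 in those of at least 4000 bases, and after removal of this length trend 79 genes met the rule, of which 41 were among the 89. The 48 that no longer met it had a median length of 2634.5 bases and the 41 that did 1545 bases. Each ratio of means checked stayed above 1 under every scaling, for the 72 protein-coding members and 5 others.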

How the data were processed

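The authors lysed pools of MII oocytes, made full-length cDNA with SMART-Seq v4, prepared Nextera XT libraries and sequenced pairs of 150 bases. The deposited table gives FPKM per gene, and the submitters' processing notes name HISAT2 2.1.0, RSEM 1.3.3, DESeq2 1.24.0 and GRCm39. Deposited columns of per-sample FPKM were read for all 6 libraries, and 0 further columns of per-sample values were left unmapped. The 89 members and the gene lists were chosen with earlier results of these data known.

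Named members were the 12 with the largest ratio of lowest IVO to highest IVM, the 12 with the highest IVO mean, the 3 just inside the fold and the 3 genes just outside it, those in a gene list, and the members of each functional group, assigned from gene functions once the members were listed. For all genes with a mean of at least 1 FPKM, limma 3.58.1 (R 4.3.3) was fitted to log2(FPKM + 1) with a trended prior, without a replicate term. The fold change on this scale understates that of low genes. DEGs needed a Benjamini-Hochberg adjusted p under 0.05 and |log2FC| of at least 1, and the fit was tested on simulated data. Of 18818 genes there, 200 were changed, and the fit called 110 of these (55%) and 11 unchanged ones. A gene that was not called is therefore not shown to be equal in both groups. p-values measure the spread between 3 pools per group.

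Depth and fragment length were inferred from low FPKM values as whole fragments, of which 61.0–65.8% came out whole within 0.1, too few for a count test. Depth-scaled fragments were FPKM times transcript length less fragment length, per 1000 bases. Transcripts, GC content and exons came from GENCODE for GRCm39, near copies from blastn 2.17.0, and promoters from RefSeq tables of GRCm38.p6. Alternatives were 3 other scalings, removal of the length trend, other thresholds, pseudocounts and filters, a replicate block and leaving out each library. Alternatives chosen after seeing the data were the last 100 bases for the CPE and leaving out near copies. The values of 1 member are not reported here.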

Additional observations from a re-analysis of the deposited data

How the results depend on the processing

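The 89 genes meeting the rule became 470 with median-ratio scaling, 1075 with quantile normalization and 365 with libraries scaled to the same sum. All 89 were among them each time, but these scalings raised IVO against IVM, so members could hardly drop out. With the gene length trend removed 79 met it, 41 of them from the 89. A ratio of at least 5 to 4 gave 335 genes, a fold of 2 gave 8 and the mean IVO against the mean IVM gave 653. Lowering the level to 1 FPKM gave 116 and raising it to 10 FPKM gave 78. Leaving out 1 library gave 118 (IVO replicate 1) to 221 (IVM replicate 3), with 159, 134, 126 and 173 for IVM replicates 1 and 2 and IVO replicates 2 and 3. A set with fewer libraries to separate can only grow.

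Genes up-regulated in IVO by limma numbered 114 as deposited, 385 with median-ratio scaling, 1096 with quantile normalization, 397 with the same sum, 169 with the length trend removed, 138 with a pseudocount of 0.1 and 81 with no filter on low values. Leaving out 1 library gave 82–130. Down-regulated genes numbered 3366, and 2130, 1579 and 2131 under the 3 scalings, 3275, 3328 and 2547 under the others and 2276–3174 with 1 library left out. The share of up-regulated genes among DEGs was 3.28% as deposited and 15.3%, 41.0% and 15.7% under the scalings. The median log2FC of all tested genes moved from -0.296 to -0.041, 0.172 and -0.030.

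Replicate numbers are shared between the groups by name only. The deviations of same-numbered pools correlated at -0.062, -0.018 and -0.107, and a fit with the replicate block gave 92 up-regulated and 2899 down-regulated genes. The ratios of means of 77 named members stayed above 1 under every scaling and with each library left out. With a library left out this follows from the rule. The 3 other scalings raised IVO against IVM, so it could hardly fail there either, and nothing is read from these. With the length trend removed the lowest ratio was 1.4. Of 26 genes of the family and pathway lists outside the set with an adjusted p under 0.05, each kept its direction under the other scalings and with the length trend removed. These genes were picked for a difference in the same data, so a reversal was unlikely and nothing is read from this. Not all kept their adjusted p. With the same sum the limma adjusted p rose to 0.191 for Pramel29 and 0.158 for Usp3. With 3 pools a group, no single pool was tested as an outlier.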
